A study of Mus musculus with 7 samples.

Results

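Of the 640 miRNAs in the count table of Argonaute 2-bound RNA from mouse plasma, 243 carried a number of 1000 or above in their name, and these late-numbered miRNAs are described here as a group. The rule used the name and no measured value. Any arm or letter suffix was allowed, and miR-1188, miR-1193, miR-1197 and miR-3072 were left out, which removed 1 row of the table. The group made up 38% of the miRNAs in the table and held 0.783% of all counts, 186384 of 23817231.

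MicroRNAs are short RNAs that are cut from a hairpin and loaded onto an Argonaute protein, where the bases next to the 5′ end, called the seed, pair with messenger RNAs. The miRBase catalogue numbers them in the order in which they were submitted. Low numbers therefore tend to be abundant, conserved miRNAs, and high numbers came largely from later deep sequencing. Some late entries were later found to lie inside other small RNAs, in very short introns (mirtrons) or in repeats.

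Each library was made from plasma pooled from 10 adult male C57BL/6JOlaHsd mice (C57 in the labels), 50 μL per mouse. RNA was recovered by immunoprecipitation of Argonaute 2 and sequenced as 1 small RNA library per condition. Status epilepticus (SE), a prolonged seizure, was induced by injection of 0.3 μg kainic acid into the amygdala, and plasma was taken at 4 h, 8 h, 24 h or 2 weeks. The SE mice also received midazolam or lorazepam to limit the seizure, and controls received PBS into the amygdala. Controls were available for 4 h, 8 h and 24 h. The SE library of 2 weeks was therefore set against the control library of 24 h, so the comparisons at 24 h and 2 weeks share a control. With 1 pool per condition, no comparison at a single time point has a replicate check, and a call compares 2 libraries rather than 2 conditions.

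The mature sequences of the 11 late-numbered miRNAs with the highest mean CPM (counts scaled to library size) among those in the RefSeq table for GRCm38 are shown 5′ to 3′, with the seed (bases 2 to 8) in capitals. The letters show how unlike these leading RNAs are in length, base composition and seed.
miR-6240: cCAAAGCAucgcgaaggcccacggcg
miR-6236: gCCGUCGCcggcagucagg
miR-5108: gUAGAGCAcuggaugguuu
miR-5106: aGGUCUGUagcucaguuggcaga
miR-1839-5p: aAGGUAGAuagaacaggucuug
miR-2137: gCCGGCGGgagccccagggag
miR-1198-5p: uAUGUGUUccuggcuggcuugg
miR-5119: cAUCUCAUccuggggcugg
miR-1843b-5p: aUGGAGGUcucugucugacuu
miR-5126: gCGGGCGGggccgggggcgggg
miR-1843a-5p: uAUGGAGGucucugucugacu

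No seed was shared among these 11. The arms named miR-1843a-5p and miR-1843b-5p had a run of 20 bases in common that is offset by 1 base, so that their seeds differ. Among all members with a sequence, the seed of miR-6240 was found in 1 other miRNA of the table, miR-330-3p, which had a TMM-adjusted level of 8.75 CPM in SE at 2 weeks and was at 0 in the other 6 libraries.

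In GRCm38 coordinates, miR-6240 lies on the plus strand of chromosome 5, 114851973 to 114851998, outside any gene annotated on that strand. miR-6236 lies on the plus strand of chromosome 9, 110281353 to 110281371, and miR-5108 on the plus strand of chromosome 10, 61774795 to 61774813, both likewise outside annotated genes of the strand. The X chromosome holds miR-1198-5p, 7807142 to 7807163, in an intron of Gripap1, and miR-2137, 72992113 to 72992133, in an intron of Zfp185. miR-5126 lies on chromosome 1, 84695890 to 84695911, outside annotated genes of its strand. miR-5119 lies on chromosome 11, 98262638 to 98262656, in an intron of Cdk12. miR-1839-5p lies on chromosome 7, 81529919 to 81529940, inside a scaRNA locus. The scaRNAs are guide RNAs of Cajal bodies. miR-1843b-5p lies on chromosome 1, 159340362 to 159340382, inside Scarna3a in an intron of Cop1, and miR-1843a-5p on chromosome 12, 80391654 to 80391674, inside Scarna3b in an intron of Dcaf5.

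Total counts per library ranged from 2043220 in the 4 h control to 5405357 in SE at 4 h. A single miRNA, miR-486b-5p, which is abundant in red blood cells, dominated every library. Its TMM-adjusted levels were 891856, 552304 and 579386 CPM in the controls of 4, 8 and 24 h. They were 857232, 543902 and 1008834 CPM in SE at those times and 520596 CPM at 2 weeks. These levels were divided by a TMM factor, from 0.754 in SE at 24 h to 1.22 in the 8 h control. They are therefore not shares of a library. Of the other red-cell markers, miR-486a-5p was at or near 0 and miR-451a between 1.72 and 20.5 CPM, while miR-144-3p was at 0 in the 4 h control and between 155 and 414 CPM in the other 6 libraries. The neuronal miR-124-3p was at 0 in every library except SE at 24 h, at 17.5 CPM. Other miRNAs that the study lists with neurons were higher. miR-128-3p ranged from 1072 CPM in the 4 h control to 2273 CPM in the 24 h control. miR-9-5p exceeded 50 CPM in the 4 h control and in SE at 8 h alone, and was at 0 at 2 weeks. The liver miRNA miR-122-5p did not exceed 17.8 CPM. Within a library, small counts clustered at 1 typical size, as they would if each captured molecule had been read about that many times. This size was 102 in the 4 h control, 60.2 and 55.1 in the controls of 8 and 24 h, 37.6, 51.9 and 45.2 in SE at 4, 8 and 24 h, and 33.1 at 2 weeks. Counts divided by this value are called estimated molecules below. Counts under 6 were outside the search. Of the members with a count in a library, 19.2% to 26.1% had fewer than 10 counts, against 2.37% to 16.4% of the other miRNAs. Counts that low lie well under 1 estimated molecule, and the estimate does not account for them.

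The late-numbered miRNAs held a smaller share of counts in the 3 acute SE libraries than in the 3 controls. The share was 1.02%, 1.19% and 0.989% in the controls of 4, 8 and 24 h and 0.479%, 0.784% and 0.392% in SE at the same times. At 2 weeks it was 0.962%. The highest acute SE share lay below the lowest control share, and the 2-week share lay just below the controls. Means were 0.552% ± 0.206 in acute SE and 1.07% ± 0.107 in controls (SD, n = 3 libraries of different time points each). The exact two-sided permutation test gave p = 0.1 for the difference of -0.516 percentage points, the smallest p that 3 against 3 libraries allow. The 95% Wilson interval ran from 0.386% to 0.399% in SE at 24 h and from 1.18% to 1.20% in the 8 h control. Such intervals cover counting error only and treat each read as an independent draw. By the estimated molecules, the group amounted to between 205 in the 4 h control and 738 at 2 weeks. If reads came in groups of that kind, the intervals are too narrow.

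The lower share did not rest on miR-486b-5p. With that miRNA taken out of the total, the late-numbered miRNAs held 4.28%, 3.66% and 2.995% in the controls, 1.47%, 2.09% and 1.64% in acute SE and 2.62% at 2 weeks, again with no overlap between acute SE and control. Nor did it rest on the few leading members alone. The members other than the 10 most abundant held 0.204%, 0.195% and 0.164% in the controls and 0.116%, 0.132% and 0.111% in acute SE. At 2 weeks they held 0.225%, above every control.

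**Figure D1:**
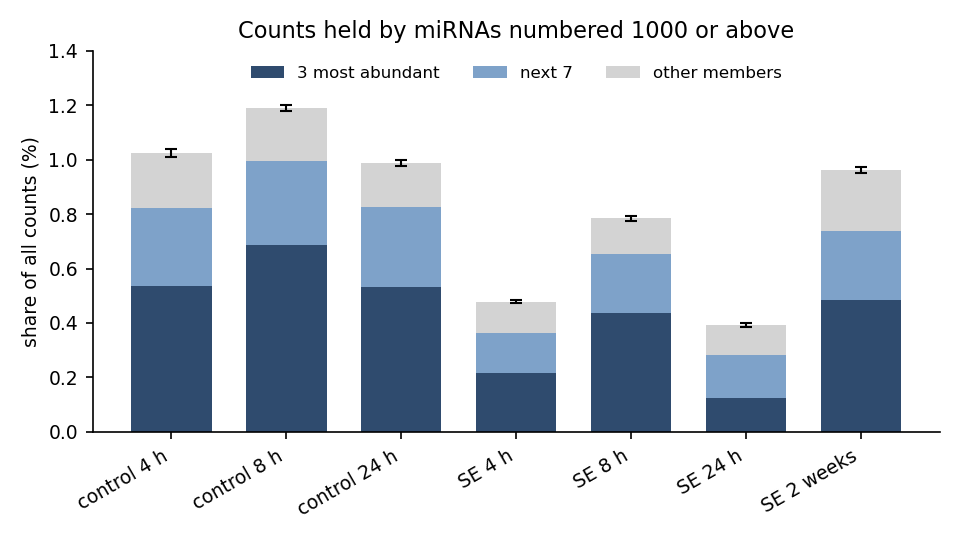
Share of all counts in each library (y axis, percent) held by miRNAs numbered 1000 or above, split into the 3 most abundant, the next 7 and the rest. Error bars are 95% Wilson intervals of the whole share that treat each read as an independent draw. The acute SE bars reach 0.392% to 0.784% and the control bars 0.989% to 1.19%.

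Few members carried the counts. The 3 most abundant, miR-6240, miR-6236 and miR-5112, held 19.6%, 16.6% and 15.2% of all counts of the group and together 51.4%, and the 10 most abundant held 80.2%. By number, the entries from 6000 up to 7000 held 38.4% of the group's counts and those from 5000 up to 6000 held 30.6%, each through its leading members, whereas the 45 entries from 7000 up to 8000 held 1.19%. In each library between 3 and 5 members made up the first 50% of the group's counts. The leading member was miR-5112 in the 4 h control and at 2 weeks, miR-6236 in SE at 8 h and miR-6240 in the remaining 4 libraries. SE at 24 h was the least concentrated library, where the 3 leading members held 31.4% of the group's counts, against 45.2% to 57.7% in the other 6.

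Only 8 members reached 50 CPM in all 7 libraries, namely miR-6240, miR-6236, miR-5112, miR-1957a, miR-5108, miR-5106, miR-1198-5p and miR-1843b-5p. Among the 397 miRNAs with lower numbers, 93 did so. At least 1 library was enough for 33 members (13.6%) and for 170 of the others (42.8%). The remaining 210 members never reached 50 CPM.

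Presence was sparse. In all, 121 members (49.8%) had a count in 1 library alone, against 24.4% of the other miRNAs, and 23 members (9.47%) had a count in all 7, against 33.5%. Of the members with any count in a library, 62.5% to 74.7% had fewer than 1.5 estimated molecules there, against 32.6% to 39.5% of the other miRNAs. Where an entry of the group had a count at all, it thus mostly lay under 1.5 estimated molecules.

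**Figure D2:**
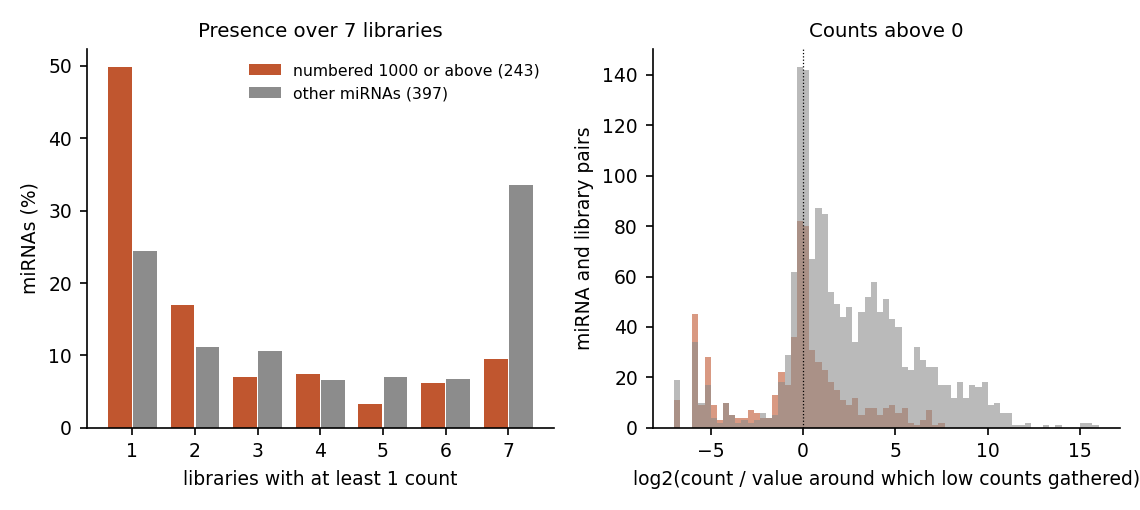
Left, percentage of miRNAs (y axis) by the number of libraries with at least 1 count (x axis), for the 243 members and the 397 other miRNAs. Right, number of miRNA and library pairs by log2 of the count over the typical small count of its library, in the same colours; the members lie mostly at or below 0, about 1 molecule, while the other miRNAs reach far above it.

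Which side had more members present turned on the cut used. At or above 50 CPM, 27, 18 and 16 members were present in the controls of 4, 8 and 24 h and 14, 15 and 13 in acute SE, with 22 at 2 weeks. The mean difference was -6.33 members (exact permutation p = 0.1, the smallest possible), and it was -3 without the 4 h control. The same cut on TMM-adjusted library sizes gave -6.67 (exact permutation p = 0.5), 10 CPM gave -9 (p = 0.4) and 100 CPM gave -2 (p = 0.3), each with overlap between the groups. With 1 count as the cut the difference had the opposite sign, with 55, 96 and 92 members in the controls and 117, 79 and 79 in acute SE (+10.7, exact permutation p = 0.6). The 4 h control had the fewest members with a count and the most reads per estimated molecule, and a count of 102 in it already corresponds to 50 CPM.

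Of the 243 members, 214 had a sequence in the RefSeq table, as did 337 of the other 397 miRNAs. The 29 members without one included miR-5112 and miR-1957a, with 15.2% and 6.84% of the group's counts. They also included miR-3960, miR-5107-5p and miR-1893. Results on sequence and locus do not cover these members, while the group's counts used as the total for shares include theirs. The members were richer in G and C, with a median of 56.8% against 47.8%, and 28 of them (13.1%) had 70% or more, against 6 of the others (1.78%). Among these were miR-6236, miR-2137 and miR-5126. Lengths outside 20 to 24 bases were found for 16 members (7.48%) and 10 others (2.97%). Those 16 included miR-6240, which is 26 bases long, and miR-6236, miR-5108 and miR-5119, which are 19, and they held 45.1% of the group's counts. All 4 of them that entered the comparison of acute SE with control libraries described below were fitted below 0. So were 12 of all 16 members tested there and 38.7% of all miRNAs. A U at the first base was as frequent in members (40.2%) as in the others (40.9%).

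Loci inside annotated snoRNAs or scaRNAs, which guide chemical modification of other RNAs, were found for 9 members. They were miR-1839-5p, both arms of miR-1843a and miR-1843b, miR-3068-3p, miR-3535, miR-6516-3p and miR-1291, and they held 8.32% of the group's counts. Their share of all counts did not follow that of the whole group. It was 0.0260%, 0.0543% and 0.0858% in the controls of 4, 8 and 24 h, 0.0521%, 0.0733% and 0.0747% in SE at those times and 0.0868% at 2 weeks, so that SE and control overlapped. Introns of 200 bases or fewer, the setting of mirtrons, held 31 members (14.5% of those with a sequence) and 5 other miRNAs (1.48%), but only 1.03% of the group's counts. One of the 31, miR-7018-5p, lies on chromosome 4, 137538286 to 137538309, in an intron of Hspg2 that spans 85 bases and is the same stretch as its hairpin.

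Some members match other RNAs in sequence, exactly or within a few edits. The sequences of miR-3470b, miR-3473b and miR-3471 occurred without a mismatch in transcripts of 546, 343 and 34 genes of GENCODE M21. Within 2 edits of another miRNA of the table were 10 members (4.67%), against 20.8% of the other miRNAs, and the authors' alignment allowed 2 mismatches. In 4 of the 10 the partner was an abundant miRNA of lower number, and those 4 held 329 counts in all. Of these, miR-1961, with 319 counts, begins with the first 13 bases of let-7g-5p, which had 27400 counts. The let-7 family is widely expressed and regulates developmental timing. The sequences of let-7g-5p and its near copies are set together to show the overlap, with bases 2 to 8 in capitals.
miR-1961: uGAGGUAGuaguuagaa
let-7g-5p: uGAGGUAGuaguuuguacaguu
miR-3962: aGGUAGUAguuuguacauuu
miR-3962, with 4 counts, shares a run of 17 bases with let-7g-5p that begins at base 3 of the latter. By these capitals miR-1961 has the let-7 seed and miR-3962 does not. These near copies were not among the members that carried the counts. Counts of miR-1843a-5p and miR-1843b-5p, by contrast, reached 1996 and 3208, and the split between these arms is uncertain.

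The following 4 comparisons asked which circulating miRNAs changed after SE. The study's methods name edgeR and a biological coefficient of variation of 0.1. Here that value was used in edgeR's exact test, with p under 0.05 and at least 1.5-fold as limits, on miRNAs with 50 CPM or more in either library after TMM scaling. The exact test, the scaling and the filter were choices made here, so these counts apply to this rule only. The fold threshold alone gave the same counts of members at all 4 times.

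At 4 h, 36 members were tested and 32 were called, 28 lower and 4 higher in SE, where the rule called 67.2% of all miRNAs tested, 34.9% lower and 32.3% higher. The median log2 fold change was -1.86 over the members and -0.06 over all miRNAs tested. In 18 of the 28 called lower, the 4 h control count that set the comparison amounted to fewer than 2 estimated molecules. Of the 17 members with more than 5 estimated molecules in either library, 9 were called lower and 4 higher. Neither cut on estimated molecules was applied to the other miRNAs, so these counts have no share over all miRNAs beside them. The balance moved with the filter on low counts, for the members and for the whole table alike. With 10 CPM in either library, 33 members were called lower and 21 higher, beside 78 lower and 140 higher of all 281 miRNAs tested. With any count, 34 members were called lower and 60 higher, beside 79 lower and 231 higher of all 429. The members' median log2 fold change was then 2.91, against 2.73 over all. Under the main filter a member could enter through the control alone. With 50 CPM in both libraries, 14 members were tested, 9 called lower and 1 higher, beside 22 lower and 39 higher of all 121. The median was then -0.81 over the members and 0.21 over all.

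Among members with 50 CPM in both libraries at 4 h, miR-5112 had 2246 CPM in the control and 628 in SE, 3.58-fold lower. miR-5119 had 478 and 94.9 CPM, 5.04-fold lower. miR-6240 was 1.79-fold lower, from 2168 to 1208 CPM, and miR-6236 2.06-fold lower, from 1878 to 911 CPM. miR-1198-5p was 2.17-fold higher, from 87.8 to 190 CPM, although its control count of 153 was about 1.5 estimated molecules. miR-1839-5p had 35.0 CPM in the control, a count of 61 or 0.597 estimated molecules, and 417 CPM in SE. Here the control stood apart, since the other 6 libraries lay between 284 and 448 CPM.

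Several members at 4 h were at 0 in one library. miR-8101, miR-7018-5p and miR-1191a had 116, 115 and 96 counts in the control and 0 in SE. Each rested on 0.939 to 1.13 estimated molecules in the control, so no fold is given. miR-3963 and miR-1843b-3p had 231 and 222 counts in SE, which is 6.14 and 5.90 estimated molecules, and 0 in the control, and outside the 4 h control their counts ranged from 42 to 239, so that the 4 h control was the single library without them.

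At 8 h, 15 members were tested and 9 were called, all lower, where the rule called 50% of all miRNAs tested and 14.9% lower. The median log2 fold change was -0.73 over the members and 0.23 over all miRNAs. miR-3960 had 201 CPM in the control and 95.3 in SE, 2.11-fold lower, and miR-5112 had 1579 and 753 CPM, 2.10-fold lower. miR-1957a fell from 598 to 310 CPM, 1.93-fold, and miR-2137 from 230 to 136 CPM, 1.68-fold. miR-6236 was close to level, at 1736 and 1657 CPM. miR-1893 had 247 counts in the control, 4.11 estimated molecules, and 0 in SE. miR-1839-5p, at 301 and 448 CPM, was the single member fitted above 0 and was not called.

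At 24 h, 19 members were tested and 14 were called, 9 lower and 5 higher, where the rule called 44.7% of all miRNAs, 19.9% lower and 24.8% higher. The median log2 fold change was -0.33 over the members and 0.04 over all. miR-5112 showed the largest difference among those with 50 CPM in both libraries, from 1527 CPM to 216, 7.08-fold lower. miR-5119 (188 to 54.2 CPM) was 3.47-fold lower, miR-2137 (175 to 61.7 CPM) 2.84-fold and miR-6240 (1708 to 723 CPM) 2.36-fold. miR-1843b-5p was 1.91-fold higher, from 181 to 346 CPM, and miR-5108 1.66-fold higher, from 406 to 675 CPM. miR-5106 and miR-1843a-5p were level within 1.02-fold, and with library size alone as the scaling their sign, like that of miR-1839-5p, turned negative. That scaling moved the median log2 fold change of all miRNAs at 24 h to -0.64 and that of the members to -0.95. With it 13 members were called lower and 3 higher, beside 75 lower and 13 higher of all 144 miRNAs tested. miR-3068-3p had 206 counts in SE, 4.56 estimated molecules, and 0 in the control. miR-5107-5p had 242 counts in the control, 4.39 estimated molecules, and 0 in SE. Calls of this kind compare a few estimated molecules with 0.

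At 2 weeks against the 24 h control, 24 members were tested and 12 were called, 8 higher and 4 lower, where the rule called 31.7% of all miRNAs, 18.6% higher and 13.1% lower. The median log2 fold change was 0.12 over the members and 0.01 over all. None of the leading 9 members was called. miR-5112 had 1775 CPM against 1527, miR-6240 had 1262 against 1708 and miR-2137 had 258 against 175. All 8 called higher had a lower count in the control than 50 CPM; the highest of them in SE was miR-5126, at 143 against 24.3 CPM. Its controls of 4 and 8 h had 283 and 123 CPM, so that its 2-week level lay within the range of the controls. Among members with 50 CPM in both libraries, miR-5119 alone was called, at 124 against 188 CPM, 1.51-fold lower. Against the 8 h control 8 members were called higher and 6 lower, beside 36 higher and 26 lower of all 145 miRNAs tested. Against the 4 h control 5 members were called higher and 23 lower, beside 45 higher and 76 lower of all 182.

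**Figure D3:**
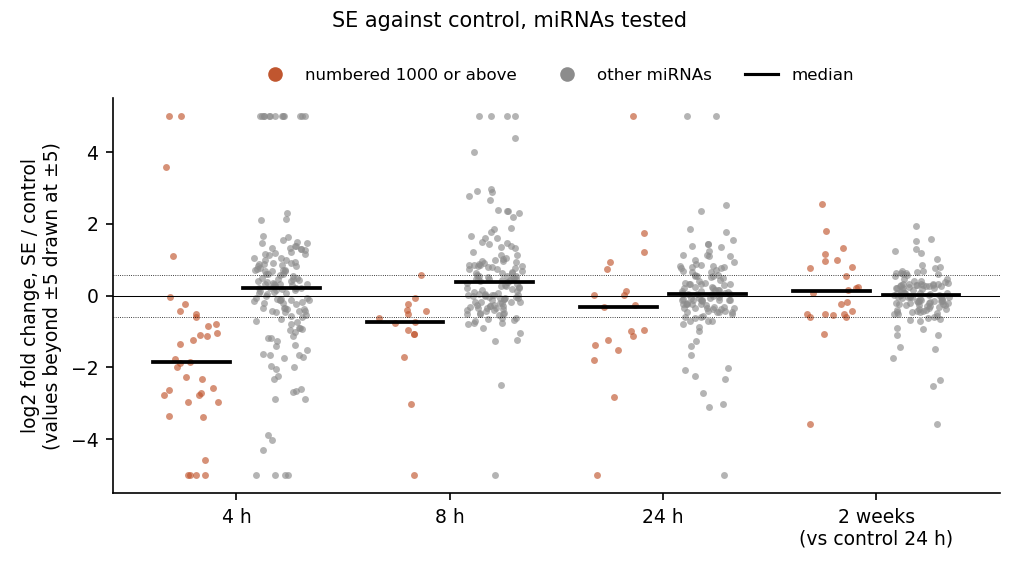
Log2 fold change of SE over control (y axis; values beyond ±5 drawn at ±5) for members and other miRNAs with 50 CPM or more in either library, at each time point, with medians as bars and the 1.5-fold threshold dotted. The members' median lies at -1.86, -0.73, -0.33 and 0.12 under this filter, and each point compares 1 library with 1 library. At 4 h it is -0.81 with 50 CPM in both libraries.

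The same rule also called members between control libraries, where no SE was induced. Between the controls of 8 h and 4 h it called 26 of 34 members, 24 of them lower at 8 h, where it called 59.3% of all miRNAs and 44.1% lower. Between 24 h and 4 h it called 27 of 35, 24 of them lower, where it called 69.6% of all and 43.1% lower, and between 24 h and 8 h it called 9 of 19, 5 lower and 4 higher, where it called 45.4%. The 4 h control thus stood apart from both other controls in the same direction as from SE at 4 h. Set instead against the controls of 8 and 24 h, an alternative added after the data had been seen, SE at 4 h had 9 members lower and 5 higher (18 lower and 65 higher of all 152 miRNAs tested), and 7 lower and 4 higher (34 lower and 56 higher of all 154).

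Taking the 3 acute SE libraries against the 3 controls, 137 miRNAs were tested by the quasi-likelihood method of edgeR (p adjusted after Benjamini and Hochberg) and 0 were called, 0.0% of all, while 17 had an unadjusted p under 0.05. The libraries of a side differ in time point and are not replicates of a condition. Of the 16 members tested, 5 had an unadjusted p under 0.05, all lower in SE (4.38% of all miRNAs were lower and 8.03% higher at that level). Fitted changes were below 0 for 12 of the 16 members, and for 38.7% of all miRNAs. The median log2 fold change was -0.83 over the members and 0.14 over all. With DESeq2's Wald test 4 miRNAs passed at an adjusted p under 0.05, of which 2 were members, miR-5112 (adjusted p = 0.00434) and miR-1957a (adjusted p = 0.0212).

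All 3 acute SE levels lay below all 3 control levels for 5 of the 16 members, and for 7.3% of all miRNAs tested. miR-5112 had 2246, 1579 and 1527 CPM in the controls of 4, 8 and 24 h and 628, 753 and 216 CPM in SE, with 1775 CPM at 2 weeks. Its acute SE levels lay well under the controls and its 2-week level among them, and the fitted log2 fold change was -1.74 ± 0.46 (standard error of the fit; adjusted p = 0.178 by the quasi-likelihood test). miR-1957a had 1054, 598 and 755 CPM in the controls and 412, 310 and 292 CPM in SE, with 532 CPM at 2 weeks, and its fitted change was -1.25 ± 0.33. Its 2-week level lay between the acute SE and the control levels.

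miR-2137 had 366, 230 and 175 CPM in the controls and 99.6, 136 and 61.7 CPM in SE, with 258 CPM at 2 weeks, and miR-6240 had 2168, 2306 and 1708 CPM and 1208, 1387 and 723 CPM, with 1262 CPM at 2 weeks. Fitted log2 fold changes were -1.37 ± 0.51 and -0.90 ± 0.30. The 2-week level was thus among the controls for miR-2137 and among the acute SE libraries for miR-6240. The fifth, miR-1893, was low throughout, at 67.1, 57.3 and 53.2 CPM in the controls and 13.9, 0 and 26.7 CPM in SE.

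Other leading members did not separate. miR-6236 had 1878, 1736 and 1361 CPM in the controls and 911, 1657 and 695 CPM in SE, with 960 CPM at 2 weeks. It was lower at each time, but SE at 8 h lay above the 24 h control. miR-5108 had 803, 471 and 406 CPM in the controls and 344, 348 and 675 CPM in SE, so that its difference changed sign between 4 and 24 h. miR-5106 ranged from 386 to 657 CPM in the controls and from 294 to 424 CPM in SE, and miR-1198-5p from 87.8 to 222 and from 156 to 190 CPM, both with overlap. miR-5119 had 478, 77.0 and 188 CPM in the controls, a 6.21-fold range, and 94.9, 53.5 and 54.2 CPM in SE. miR-1839-5p was the single member with every acute SE level above every control (9.49% of all miRNAs), at 35.0, 301 and 403 CPM against 417, 448 and 440 CPM, and its fitted log2 fold change was 0.82 ± 0.72. At 24 h the difference was 1.09-fold. With library size alone as the scaling its 24 h log2 fold change was -0.49, so the separation did not hold on that scaling.

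**Figure D4:**
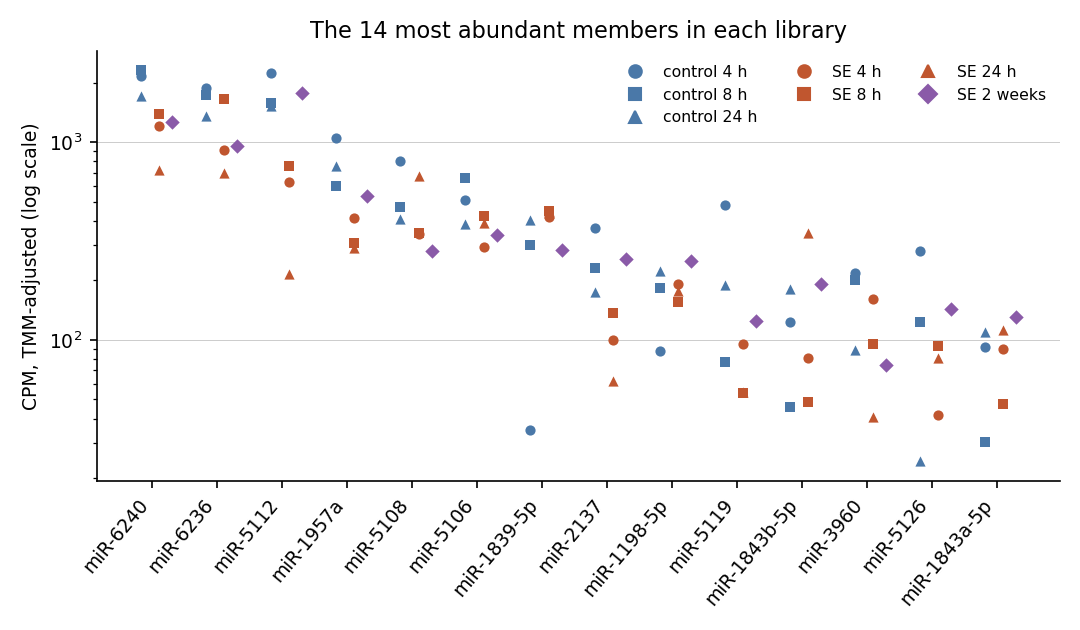
Level (TMM-adjusted CPM, log scale) of the 14 most abundant members in each library, by group (colour) and time (symbol). miR-6240, miR-5112, miR-1957a and miR-2137 have all 3 acute SE points below all 3 control points, miR-1839-5p has them above, and the remaining 9 overlap.

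On TMM scaling, SE was below the same-time control at all 3 acute times for 8 of the 16 members (16.1% of all miRNAs). It was above that control at all 3 times for 1, miR-1839-5p (25.5% of all). The other 7 changed sign between times. Direction thus varied within the group. The 4 leading members by count were each fitted below 0. miR-1839-5p, miR-1843a-5p and miR-1843b-5p, which lie in scaRNAs, were fitted above it, at 0.82 ± 0.72, 0.10 ± 0.76 and 0.44 ± 0.85, and with library size alone as the scaling miR-1843a-5p turned to -0.21. That scaling moved the median of all miRNAs from 0.14 to -0.17. None of these 3 changes was large beside its standard error.

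The study lists miR-1191a, miR-1983 and miR-3099-3p with a brain cell type, and all 3 were near the level of single molecules. miR-1191a had 96 counts in the 4 h control and 0 elsewhere. miR-1983 had 0, 0 and 34 counts in the controls of 4, 8 and 24 h, 58, 50 and 0 in SE and 42 at 2 weeks. miR-3099-3p had 24 counts in SE at 8 h and 0 elsewhere. For read counting alone, a count of 0 allows up to 3 counts, or 0.555 to 1.47 CPM depending on the library. If reads came in groups of the estimated size, 3 molecules would be 99.4 to 307 counts, so that the limit would be far wider. A change with SE was not detectable for them at this depth.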

How the data were processed

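Small RNA was sequenced from Argonaute 2 immunoprecipitates of pooled plasma, 7 libraries of 1 pool each. The authors trimmed adapters, size-selected reads and aligned them to miRBase with Chimera, allowing 2 mismatches, and deposited raw counts per miRNA; the version of that tool is not given in the sources used here. Groups were taken from the labelled treatment and time point. Here, edgeR 4.0.16 in R 4.3.3 was used on the whole table of counts, with TMM factors over 7 libraries. Pairs were compared by the exact test with a biological coefficient of variation of 0.1, and 3 acute SE with 3 control libraries by the quasi-likelihood test, with DESeq2 1.42.0 as an alternative. Nothing in the labels marks samples as replicates, so spreads are between pools of different time points. CPM values are scaled to library size and TMM-adjusted unless given for a threshold of presence. The typical small count of a library was the mode of a kernel density of log counts between 6 and 300 (bandwidth 0.15). Scripts were tested on simulated data. Sequences came from RefSeq (GRCm38.p6) and annotation from GENCODE M21; 29 members had no match. Near copies were sought by placing the shorter sequence within the longer.

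Members, lists and tests were chosen with earlier results of these data known. Named members were the 10 with the highest mean CPM, those at 50 CPM in all libraries, the 3 largest changes each way at each time with 50 CPM in both libraries, up to 3 each way with 3 counts or fewer in one library, the 3 on the study's brain list, and any that passed the quasi-likelihood test. miR-5126, miR-1961, miR-3962, miR-3470b, miR-3471, miR-3473b and the further members of annotation groups were named after their values were seen.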

Additional observations from a re-analysis of the deposited data

Results flagged for a closer look

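For 3 members the difference between SE and control, on TMM scaling, had opposite signs at different times while passing the 1.5-fold rule both times. The difference between times was not tested, since each time has 1 library a side. The 4 h values used the 4 h control, which stood apart from the other controls. miR-5108 had a log2 fold change of -1.23 at 4 h and 0.73 at 24 h. Its control levels at those times were 803 and 406 CPM and its SE levels 344 and 675 CPM. miR-1843b-5p, which lies in a scaRNA, had -0.60 at 4 h and 0.93 at 24 h. Its control counts were 214 and 716 and its SE counts 345 and 970. With library size alone as the scaling, the 24 h values were 0.12 for miR-5108 and 0.31 for miR-1843b-5p, both under the 1.5-fold limit. miR-3068-3p, which lies in a snoRNA locus, had a log2 fold change of -2.70 at 4 h, from 96 counts in the control, 0.939 estimated molecules, to 36 in SE. At 24 h it had 0 counts in the control and 206 in SE, 4.56 estimated molecules.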

How the results depend on the processing

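The lower share of counts in acute SE kept its direction under every alternative for the total, the members and the libraries, and leaving out 1 library moved the difference between -0.632 and -0.436 percentage points. The difference in members at 50 CPM ranged from -8.50 to -3.00 with 1 library left out, and reversed to +10.7 at a threshold of 1 count. Members called at 4, 8 and 24 h and 2 weeks numbered 54, 59, 77 and 58 with 10 CPM in either library, of 59, 79, 83 and 78 tested (over all miRNAs 218 of 281, 227 of 346, 230 of 334 and 178 of 313). They numbered 94, 73, 95 and 91 with any count, of 131, 126, 128 and 140 tested (over all 310 of 429, 257 of 424, 261 of 412 and 238 of 420). With 50 CPM in both libraries they numbered, in the same order, 10, 6, 8 and 1 of 14, 12, 12 and 13 tested. Over all miRNAs these were 61 of 121, 43 of 119, 35 of 112 and 21 of 117. A coefficient of variation of 0.4 left 22, 2, 5 and 3 of 36, 15, 19 and 24 members tested. Over all it left 58 of 189, 23 of 154, 19 of 141 and 8 of 145. Against the controls of 8 and 24 h, SE at 4 h gave 14 of 21 and 11 of 19 members tested (over all 83 of 152 and 90 of 154). Against the 4 h control, SE at 2 weeks gave 28 of 36 (over all 121 of 182). In acute SE against control libraries 0 members passed, also with each library left out (2 against 3) and with the time point as a block (lowest adjusted p = 0.0707, edgeR), while 2 passed with DESeq2 and 1, miR-5112, with any count. The labels carry no replicate numbers, so no other pairing was tried. Most members with a count had about 1 molecule or less by an estimate drawn from the counts alone, without molecular identifiers. Whether this limits the values was not tested.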
